A study of Petunia x hybrida with 12 samples.

Results

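In pistils of petunia plants silenced for PhTPS1, 97 gene IDs stood apart from the wild type in the same direction on both sampling days, 56 of them higher and 41 lower. They are 97 of the 35812 IDs in the count table. The members were chosen by their own measured values, so the genotype difference is what defines them and is described here without a test. An ID is a member when, on each day, all 3 libraries of the silenced plants lay above the 3 wild-type libraries, or on each day all 3 lay below them. Its fold between the genotypes also had to reach 1.5 on each day, with the higher group at 1 CPM or more. Lastly, the means of the 2 days had to lie within 32-fold of each other. CPM is the count per 1000000 counts of its library. The fold is the ratio of the group means, each with 0.1 CPM added, and is given as the higher over the lower group.

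Terpene synthases turn prenyl diphosphates into terpenes, many of which leave the plant as volatiles. In petunia flowers, sesquiterpenes made by PhTPS1 are known to reach the pistil as vapour, from tissues around it. KAI2 is a receptor of the hydrolase fold that also perceives karrikins, and it acts with the F-box protein MAX2 to mark repressors of the SMXL family for breakdown. The study's title links such volatile communication to KAI2 signalling. The comparison of genotypes therefore asks what changes in the pistil when the source of these volatiles is silenced, before and after the flower opens.

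All plants were Petunia x hybrida of the cultivar Mitchell, and the 4 groups of 3 libraries were wild type (WT) and PhTPS1 RNAi plants (tps1, as in the labels), each at day -1 and at day +1 relative to flower opening. Pistils of both genotypes were taken at the same hour in the afternoon, and polyadenylated RNA was sequenced. The sources used here state neither the promoter of the RNAi construct nor how many transformed lines or plants stand behind a library. There is no group with a control construct, so silencing of PhTPS1 cannot be told apart from any other difference between the plants. Because these are whole pistils, fewer cells of a type and less RNA per cell cannot be told apart either. The labels do not tell whether replicate libraries are separate plants, so the p-values below rest on a spread that may be technical.

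Libraries held 19576755 to 30357964 counts. Its rows are IDs without gene names, so PhTPS1, the genes of the KAI2 pathway and markers of the pistil were not looked up, and no member is given a function here. On the second principal component of log2(CPM + 1), which held 6.23% of the variance, WT day -1 replicate 2 lay at 56.3 and tps1 day -1 replicate 2 at -38.9, while the other 10 libraries lay between -23.2 and 14.8. With the same rule, 60 IDs were higher and 44 lower without the first of these libraries, and 65 were higher and 62 lower without the second. With both left out, 70 were higher and 75 lower, and these lists held 49 of the 56 and 36 of the 41 members. Longer lists were not limited to these 2 libraries. Without WT day -1 replicate 3, which is among the other 10, 74 were higher and 53 lower. Leaving out any library makes the condition of no overlap easier to meet.

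Of the IDs in the table, 17654 reached 1 CPM in the higher group on each day, and 17448 of these also had day means within 32-fold. Among the 17654, the 3 tps1 values lay above the 3 WT values for 3.48% at day -1 and for 10.8% at day +1. They lay below for 3.87% at day -1 and for 8.48% at day +1. Without the 1.5-fold condition, 167 IDs lay above and 143 below on both days, while 26 lay above at day -1 and below at day +1 and 35 did the reverse. With that condition, 56 and 41 kept their direction and 3 IDs changed it. Those 3, named after their values were seen, were Peaxi162Scf00263g01310, higher in tps1 and then lower, and Peaxi162Scf00016g03241 and Peaxi162Scf00855g00229, lower and then higher. Peaxi162Scf00016g03241, for example, had a mean in WT of 6.73 CPM before and 5.82 CPM after opening, while its mean in tps1 was 3.29 CPM and then 12.9 CPM.

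**Figure D1:**
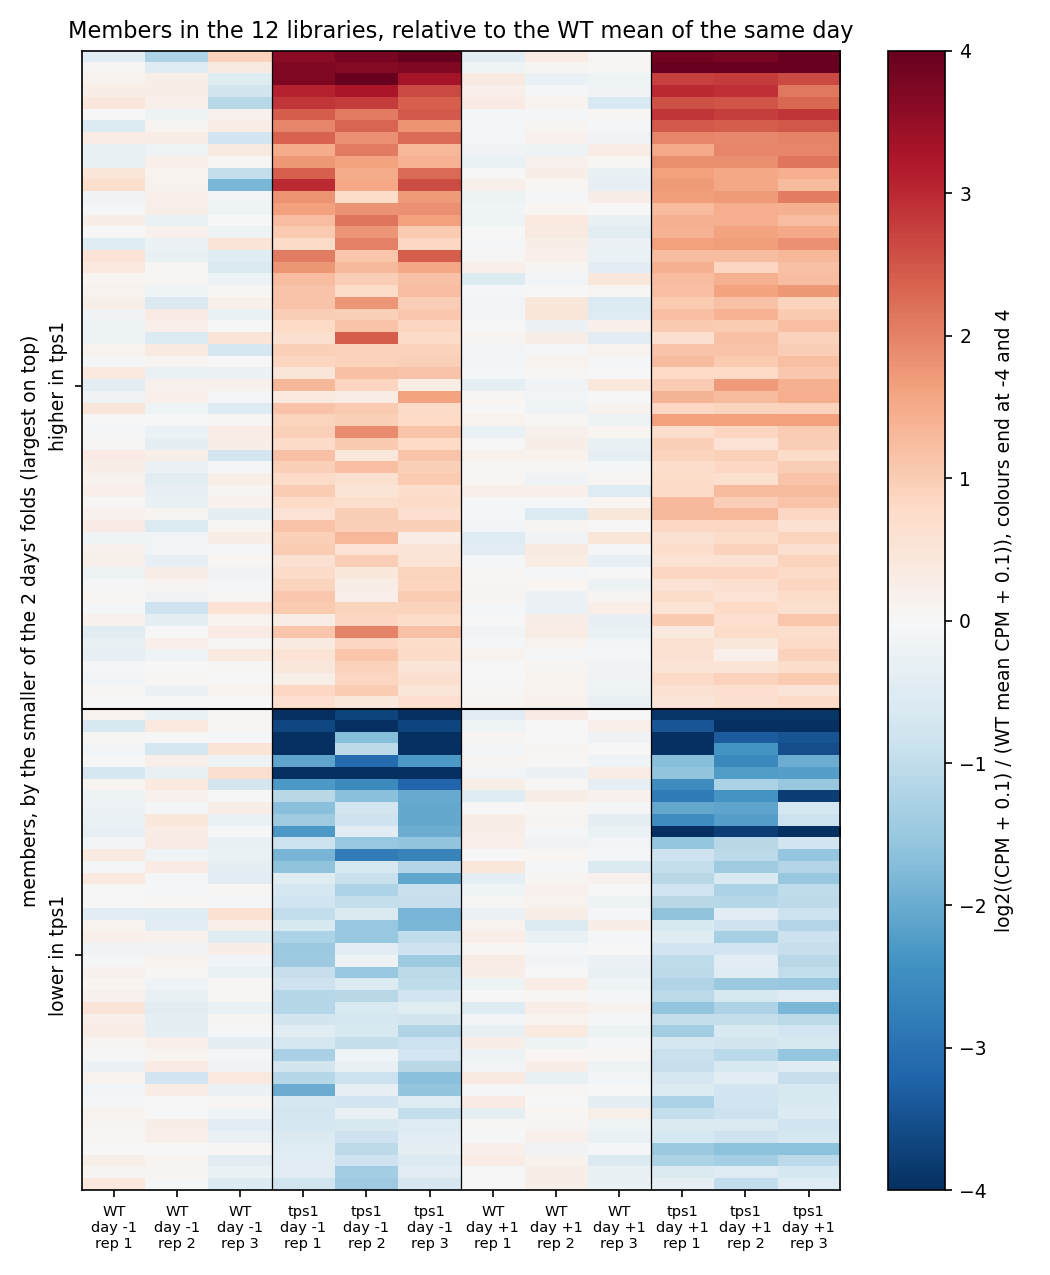
Heat map of the 97 members (rows) in the 12 libraries (columns), as log2 of CPM + 0.1 over the WT mean + 0.1 of the same day; red is above and blue below that mean. The 56 members above the black line are red in all 6 tps1 libraries and the 41 below it are blue, as the rule requires; the darkest rows are the few members with folds over 8.

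Most members differed between the genotypes by modest amounts. Among the 56 higher members the median fold was 2.00 at day -1 and 2.20 at day +1, and among the 41 lower members it was 2.01 and 2.03. Over all IDs at the minimum level, the median ratio of tps1 to WT was 1.00 at day -1 and 1.01 at day +1. A fold of at least 2 on both days was seen for 23 higher and 15 lower members. A fold of at least 4 on both days was left for 7 higher and 5 lower members, and a fold of at least 8 for 2 and 3. Together, the higher members took 0.0523 to 0.0593% of the counts of a WT library and 0.128 to 0.133% of those of a tps1 library at day -1. At day +1 these ranges were 0.0643 to 0.0809% in WT and 0.165 to 0.174% in tps1.

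Members were mostly of low abundance. Their mean over the 12 libraries had a median of 5.30 CPM for the higher and 3.02 CPM for the lower members, against 22.7 CPM for all IDs at the minimum level. The rule chose the members on these same values, and its part in their lower level was not tested. Under 5 CPM lay 27 of the 56 higher and 28 of the 41 lower members, and 2 higher members and 1 lower member reached 100 CPM. Levels of different IDs are not compared per length, because no gene lengths were used.

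At the upper end of the fold stood a pair of IDs on scaffold number 01082 that were low in WT and clearly present in tps1. Peaxi162Scf01082g00028 measured 8.93, 6.16 and 11.1 CPM in WT and 114, 112 and 116 CPM in tps1 at day -1. After opening it measured 4.09, 5.03 and 4.85 CPM in WT and 105, 106 and 113 CPM in tps1. The tps1 values thus hardly moved within or between the days, and the WT values were lower on both days and lower after opening than before it. Its fold was 12.9 at day -1 and 22.7 at day +1. The listed neighbour Peaxi162Scf01082g00025 had 0.190, 0.0659 and 0.622 CPM in WT and 4.68, 5.38 and 6.72 CPM in tps1 at day -1. Its values at day +1 were 0.204, 0.408 and 0.323 CPM in WT and 5.92, 5.67 and 6.25 CPM in tps1. Its WT libraries held 2 to 14 counts each, so the fold of 14.5 at day -1 and 14.7 at day +1 rests on few reads in WT.

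The lower members with the largest folds were close to undetected in tps1. Peaxi162Scf00013g00518 had 79, 86 and 81 counts in WT and 1, 5 and 0 counts in tps1 at day -1. After opening it had 19, 39 and 30 counts in WT and 0 in each of the 3 tps1 libraries, which makes it at least 36.9-fold lower in tps1, taking 3 counts over the group as the floor. Before opening, the ratio of its summed counts, corrected for depth, was 45.2, with an exact 95% interval of 20.5 to 124. Peaxi162Scf00577g00064 had 22, 67 and 38 counts in WT against 1, 0 and 1 in tps1 at day -1, a ratio of 69.9 with an interval of 19 to 584. At day +1 it had 42, 53 and 61 counts in WT against 4, 0 and 1 in tps1, a ratio of 39.2 with an interval of 16.4 to 122. These intervals cover counting error only, pool the 3 libraries of a group, and no molecular identifiers are recorded. They also take no account of the rule having chosen both IDs on this contrast, so no test is read from them. The folds used for the other members, with 0.1 CPM added, were smaller. At day -1 and day +1 they were 20.7 and 14.7 for Peaxi162Scf00013g00518, and 13.9 and 16.2 for Peaxi162Scf00577g00064. For both IDs every WT library held more than 4 times the counts of any tps1 library of that day.

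The 2 most abundant of the higher members had far smaller folds. A high level did not always go with a small fold, since Peaxi162Scf01082g00028, described above, had a mean of 58.8 CPM over the 12 libraries. Peaxi162Scf01002g00214 was at 110, 113 and 118 CPM in WT and at 157, 214 and 163 CPM in tps1 at day -1, a fold of 1.56. At day +1 it was at 184, 199 and 167 CPM in WT and at 270, 269 and 299 CPM in tps1, a fold of 1.53. The groups were separate on each day. At day -1, the tps1 library at 214 CPM lay above all WT libraries of day +1, and those at 157 and 163 CPM lay below them. Peaxi162Scf00274g00746 went the other way in time, with 164, 114 and 153 CPM in WT and 289, 211 and 234 CPM in tps1 at day -1. After opening it had 78.7, 78.7 and 47.6 CPM in WT and 116, 164 and 166 CPM in tps1.

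Among the lower members, Peaxi162Scf00073g02223 had the highest mean level. It measured 26.0, 34.6 and 21.2 CPM in WT and 8.90, 17.4 and 11.9 CPM in tps1 at day -1. After opening it measured 372, 254 and 182 CPM in WT and 140, 99.8 and 120 CPM in tps1. Its fold was 2.13 and 2.25, so the genotypes stood in nearly the same proportion at levels that were far higher after opening than before it. Peaxi162Scf00944g00145 was high before opening, with 111, 73.5 and 116 CPM in WT and 65.7, 35.3 and 28.2 CPM in tps1. It had 9.25, 5.71 and 9.98 CPM in WT and 5.36, 4.68 and 3.65 CPM in tps1 at day +1. Here the groups came close to each other, since the lowest WT value was 1.12 times the highest tps1 value at day -1 and 1.06 times at day +1, with 0.1 CPM added to each.

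**Figure D2:**
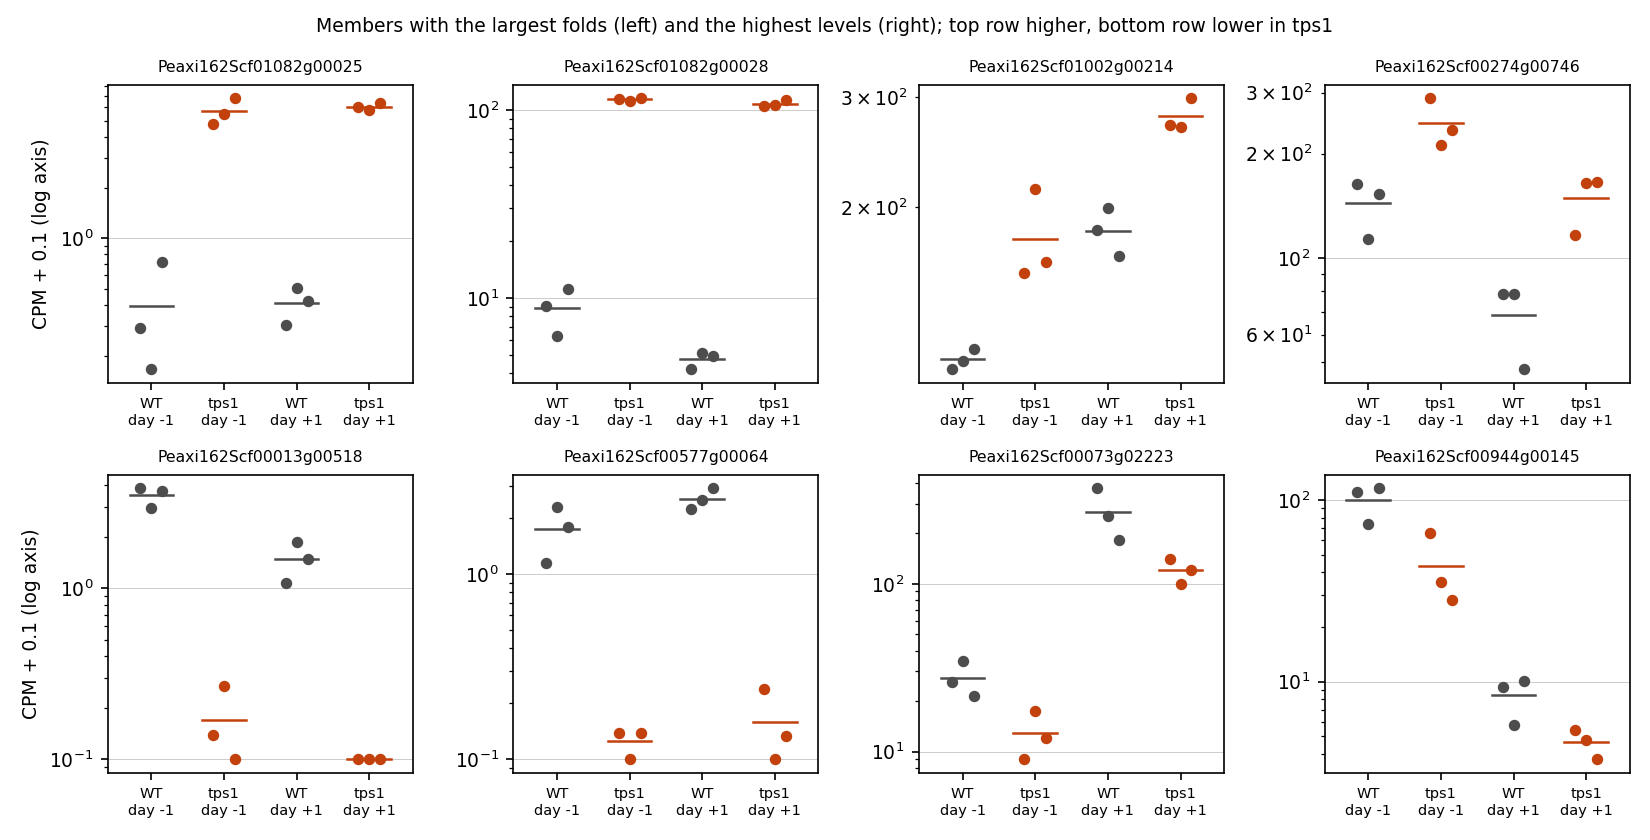
CPM + 0.1 (log axis, own range in each panel) of 8 members in the 4 groups of 3 libraries; points are libraries and lines are group means. The 2 left panels of each row show the largest folds, such as Peaxi162Scf01082g00028 with 114 CPM in tps1 against 8.73 CPM in WT at day -1, and the 2 right panels show the most abundant members, whose groups lie closer together.

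The fold of a member was of similar size on the 2 days for most of the higher members and more variable for the lower ones. The lower members were also less abundant, with a median level of 3.02 CPM against 5.30 CPM. The part of abundance and of the added 0.1 CPM in this contrast was not tested. The fold was farther from 1 at day +1 for 27 higher members and at day -1 for 29, and for 22 and 19 lower members. The 2 days' folds were within 1.25-fold of each other for 33 of the 56 higher and 21 of the 41 lower members. They were over 1.5-fold apart for 7 higher and 11 lower members. As a description across IDs that were chosen on both axes, the log2 folds of the days correlated with r = 0.88 and rho = 0.74 over the 56 higher members. Over the 41 lower members r was 0.73 and rho 0.55. Whether the fold of any member differed between the days was not tested, because the rule used both folds.

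**Figure D3:**
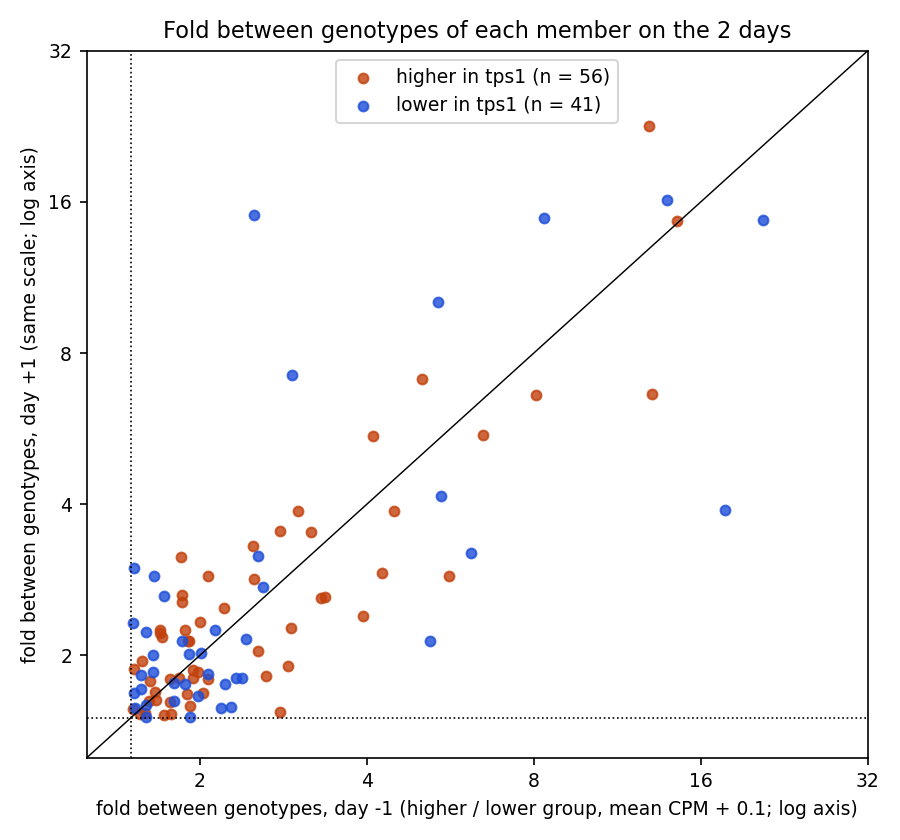
Fold between genotypes (higher over lower group mean, each with 0.1 CPM added; log axes) at day -1 against day +1 for the 56 higher and 41 lower members; the line marks equal folds and the dotted lines the threshold of 1.5. Most points lie near the line, and the lower members include those farthest from it.

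The members whose fold moved most between the days were all in the lower set. Peaxi162Scf00853g00214 had 2.90, 4.45 and 3.55 CPM in WT against 0.663, 2.65 and 0.845 CPM in tps1 at day -1, a fold of 2.51. At day +1 WT stayed at 3.12, 2.45 and 2.12 CPM, while each tps1 library was left with 2 counts, a fold of 15.0. Peaxi162Scf00305g00091 did the reverse: in tps1 it went from 3, 4 and 3 counts at day -1 to 52, 24 and 34 counts at day +1. In WT it had 2.37, 3.06 and 6.04 CPM and then 5.16, 4.71 and 6.93 CPM, so its fold was 17.7 before opening and 3.89 after it. At such low counts the 0.1 CPM added makes the fold smaller. The ratio of summed counts, corrected for depth, was 30.7 for Peaxi162Scf00305g00091 at day -1 and 33.7 for Peaxi162Scf00853g00214 at day +1. Their exact 95% intervals, 16.5 to 64.8 and 15.2 to 93.2, cover counting error only. Among the higher members the fold grew most for Peaxi162Scf01082g00028, described above, and shrank most for Peaxi162Scf03648g00020. The latter had 0.332, 0.362 and 0.178 CPM in WT against 5.11, 6.08 and 3.80 CPM in tps1 at day -1, and 2.61, 1.68 and 1.80 CPM against 14.1, 14.6 and 13.3 CPM at day +1. Both genotypes had more of it after opening, and its fold was 13.0 and then 6.62.

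How far the groups were apart varied widely. The gap, which is the lowest value of the higher group over the highest value of the lower group with 0.1 CPM added to each, had a median of 1.47 at day -1 and 1.64 at day +1 for the higher members. For the lower members the medians were 1.26 and 1.42. At day -1 the gap was under 1.1 for 8 higher and 14 lower members, and at day +1 for 3 and 3. A gap of at least 2 was found for 11 higher and 7 lower members at day -1 and for 20 and 10 at day +1. Libraries of 1 group also differed more often by 2-fold for the members than for all IDs at the minimum level, except in WT at day +1. The highest library was at least 2-fold above the lowest for 18.6% of members in WT at day -1, against 9.23% of IDs at the minimum level, and for 21.6% against 11.2% in tps1 at day -1. At day +1 these shares were 4.12% against 5.02% in WT and 8.25% against 1.05% in tps1. Members were of lower abundance than those IDs, and the part of abundance in this spread was not tested.

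The tps1 library of day -1 numbered 2 was the one nearest to WT for 39 of the 97 members, against 32 and 26 for replicates 1 and 3. Among the WT libraries of that day, replicate 3 was nearest to tps1 for 39 members, and replicates 1 and 2 for 31 and 27. At day +1, WT replicate 2 was nearest to tps1 for 30 of the 56 higher members but for only 8 of the 41 lower ones. Among the tps1 libraries of day +1, replicates 1, 2 and 3 were nearest to WT for 39, 33 and 25 members.

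Some members came in neighbouring pairs. The IDs carry a scaffold number, and the 97 members fell on 89 such numbers, of which 8 held 2 members and 0 held more. In 7 of these 8 pairs both members were shifted in the same direction. In 5 pairs no other ID at the minimum level was listed between the members. The pairs were singled out after their values were seen, and whether paired IDs share reads or belong to 1 gene was not tested. Looking at the nearest listed ID at the minimum level on either side of each member gave 168 neighbours, of which 10 were members. Of the 158 that were not, 3 lay apart from WT on both days in the direction of their member, or 1.90%. Among all IDs meeting the level and day limits, 0.957% lay above and 0.82% below on both days.

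Within pairs, the order of the 3 libraries of a group was the same for both members in 11 of 32 comparisons, which are 4 groups in each of 8 pairs. Other pairs of IDs were not compared in this way, so whether unrelated IDs share the order less often was not tested. The pairs on scaffold numbers 00168 and 00825 shared the order in 3 of their 4 groups, and those on 00258, 00782 and 03648 in 0. On scaffold number 00825, Peaxi162Scf00825g00003 and Peaxi162Scf00825g00004 were listed side by side. The first had 1.99, 1.32 and 0.267 CPM in WT and 10.1, 3.66 and 7.76 CPM in tps1 at day -1, and the second had 18.2, 14.3 and 6.71 CPM and 68.5, 36.5 and 63.4 CPM. For both, WT replicate 3 was the lowest WT library and tps1 replicate 2 the lowest tps1 library. At day +1 the first had a mean of 22.3 ± 3.29 CPM in tps1 against 7.71 ± 1.45 CPM in WT, and the second of 137 ± 8.81 against 46.8 ± 8.57 CPM (SD, n = 3). On scaffold number 00168, Peaxi162Scf00168g01520 and Peaxi162Scf00168g01522 were also neighbours, and both were highest in replicate 2 of tps1 at day -1. Peaxi162Scf00168g01520 had 5.70, 8.84 and 5.07 CPM there against 2.94, 1.65 and 2.93 CPM in WT. Peaxi162Scf00168g01522 had 6.63, 12.5 and 8.84 CPM against 3.23, 2.27 and 2.76 CPM.

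A pair of lower members on scaffold number 00023 varied strongly among the tps1 libraries. Peaxi162Scf00023g02530 had 12.2, 11.6 and 10.9 CPM in WT and 0.390, 3.46 and 0.0384 CPM in tps1 at day -1. At day +1 it had 13.6, 12.7 and 11.4 CPM in WT and 0.0350, 1.17 and 1.05 CPM in tps1. The tps1 libraries ranged from 1 count to 103 counts while WT held between 245 and 351. Peaxi162Scf00023g02534, with 1 ID between them, had 1, 43 and 0 counts in tps1 at day -1 and 0, 17 and 9 counts at day +1. In WT it had 2.85, 1.84 and 4.58 CPM at day -1 and 4.24, 4.98 and 4.66 CPM at day +1, so its WT libraries also differed from each other before opening. For both IDs, the tps1 library with the most counts at day -1 was replicate 2, and replicate 1 of day +1 had the fewest counts of its group.

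On scaffold number 03648, Peaxi162Scf03648g00013 went in WT from 9.34 ± 3.39 CPM before to 17.5 ± 2.13 CPM after opening, and in tps1 from 42.2 ± 7.73 to 68.0 ± 0.803 CPM (SD, n = 3). Its partner was Peaxi162Scf03648g00020, given above, and both were higher in tps1. On scaffold number 00782, Peaxi162Scf00782g00210 went in WT from 17.3 ± 1.12 to 11.9 ± 1.08 CPM, and in tps1 from 32.7 ± 1.22 to 26.9 ± 1.99 CPM. The other member there, Peaxi162Scf00782g00027, had folds of 1.83 and 1.81. Peaxi162Scf00073g01923 shared its scaffold number with Peaxi162Scf00073g02223 with 21 listed IDs between them, and its folds were 1.53 and 1.57. The pair on scaffold number 00258 went in opposite directions. There, Peaxi162Scf00258g00013 was lower in tps1, at 1.40 ± 0.442 against 9.15 ± 3.30 CPM in WT at day -1, and Peaxi162Scf00258g00045 was higher, at 24.2 ± 4.32 against 11.6 ± 1.30 CPM.

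**Figure D4:**
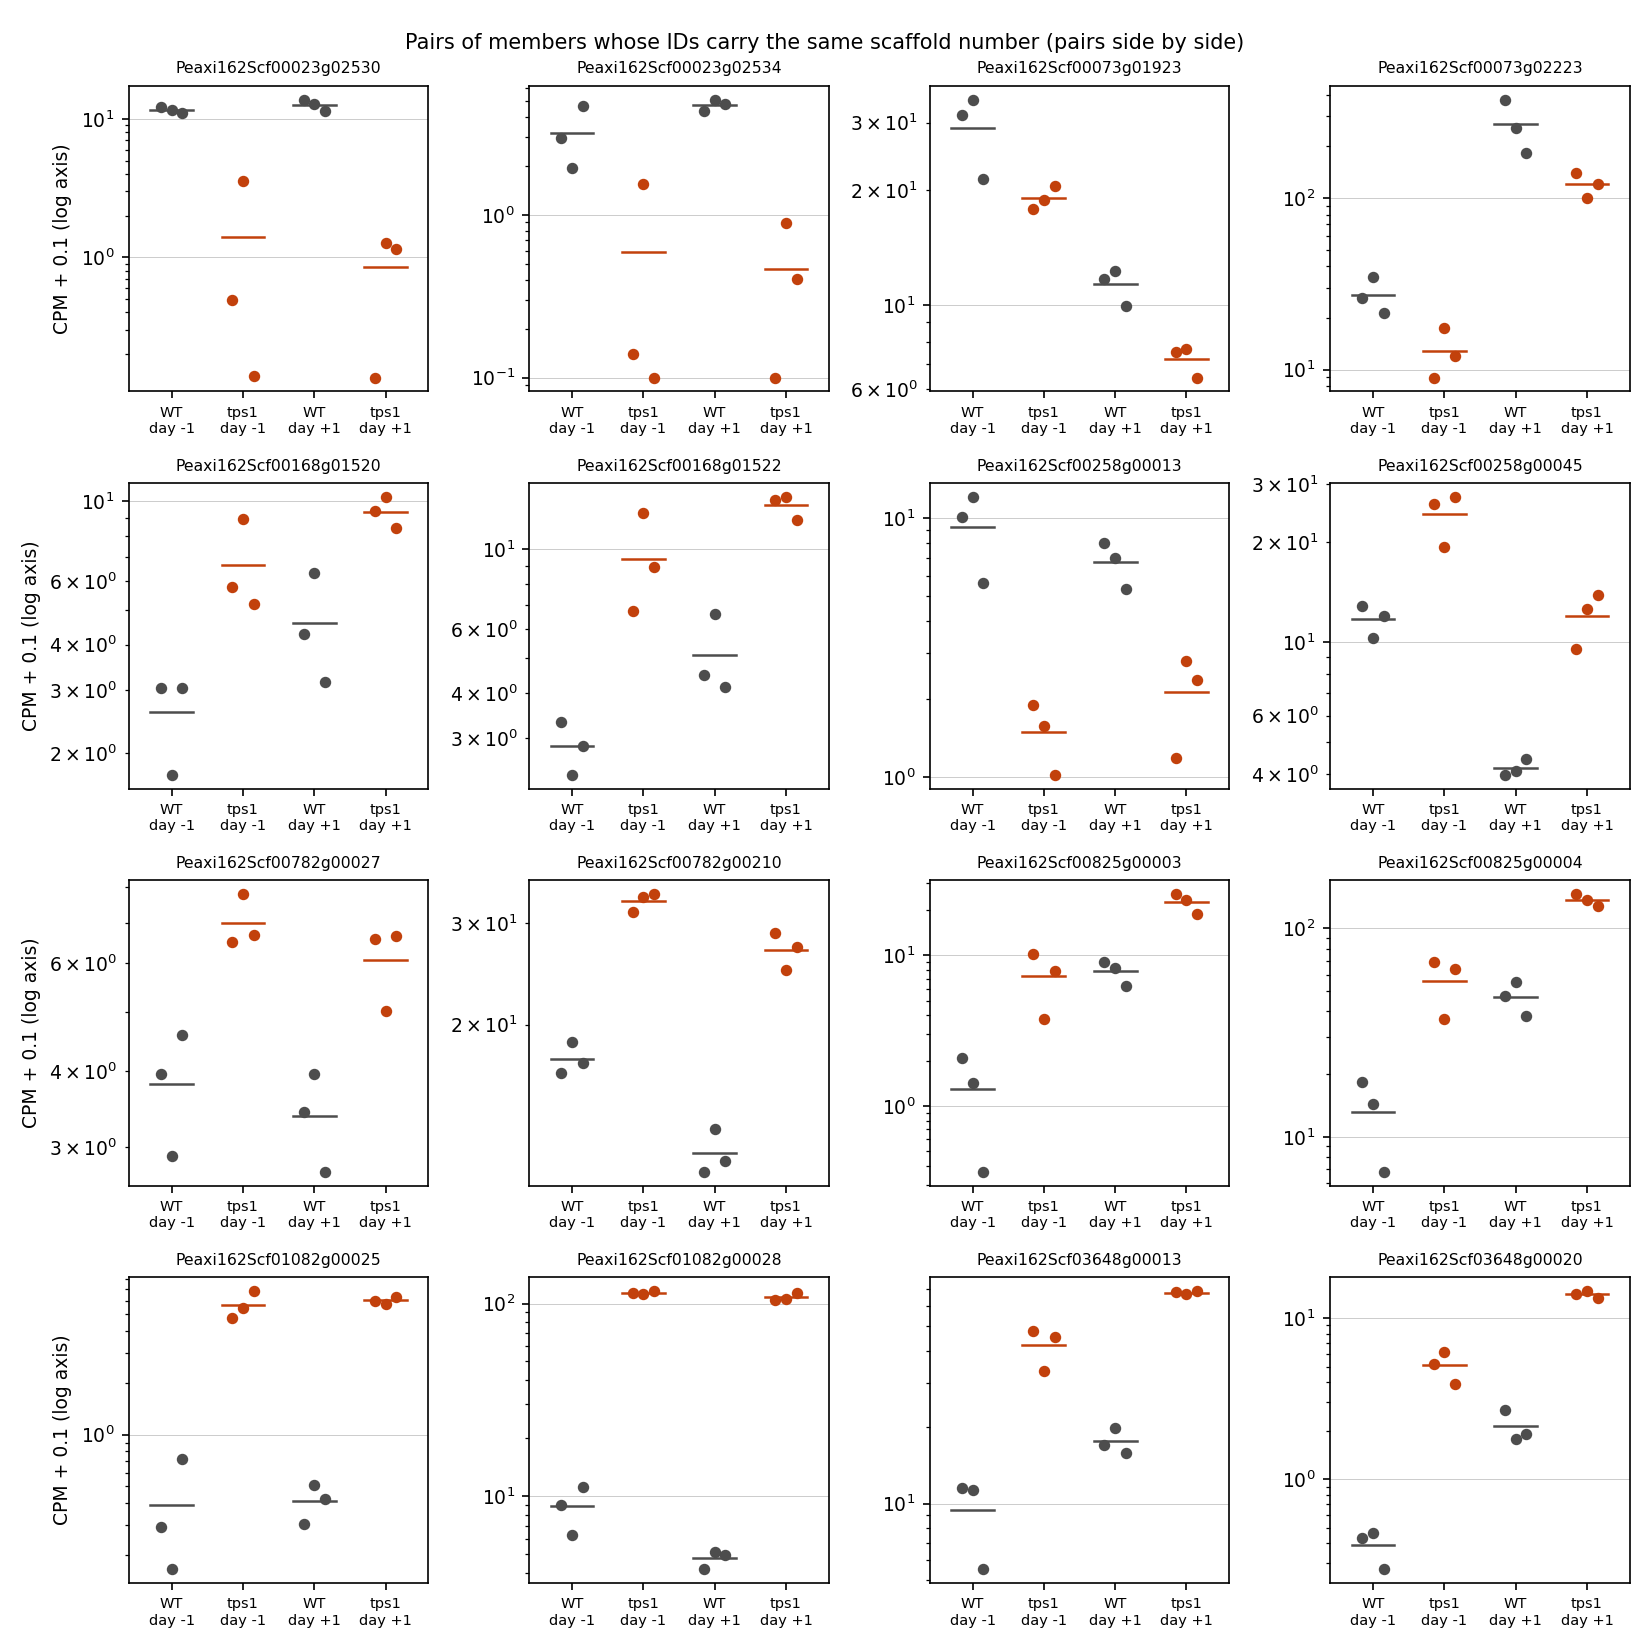
CPM + 0.1 (log axis, own range in each panel) of the 8 pairs of members with a shared scaffold number, side by side; points are the 3 libraries of a group and lines the group means, WT in grey and tps1 in orange. In 7 pairs both panels shift the same way between grey and orange, and on scaffold number 00258 they shift in opposite ways.

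Within a genotype, the rule did not use the change between days, apart from its limit of 32-fold and its minimum level on each day. By fixing the direction of the genotype difference on both days, it did limit how the day changes of the genotypes can differ. The change between days was tested with edgeR's quasi-likelihood test over all 21239 IDs that passed the filter on low counts, the 97 members among them. In WT, 37 members rose from day -1 to day +1 and 26 fell (adjusted p under 0.05), or 38.1% and 26.8% of the members. Of all IDs tested, 31.3% rose and 33.5% fell in WT. In tps1, 34 members rose and 30 fell, or 35.1% and 30.9%, against 31.8% and 33% of all IDs tested. Any change was thus called for 64.9% of members in WT and for 64.8% of all IDs, nearly the same share. Among the 17448 IDs that met the same limits on level and day change as the members, 30.6% rose and 32.6% fell in WT. In tps1, 30.5% of these IDs rose and 31.8% fell.

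The day changes of higher and lower members are described separately here. Of the 56 higher members, 26 (46.4%) rose and 15 (26.8%) fell in WT. In tps1, 23 (41.1%) rose and 14 (25%) fell, and the median log2 changes were 0.59 in WT and 0.39 in tps1. Of the 41 lower members, 11 (26.8%) rose and 11 (26.8%) fell in WT. In tps1, 11 (26.8%) of them rose and 16 (39%) fell, with medians of -0.09 in WT and -0.06 in tps1. Of all IDs tested, 31.3% rose and 33.5% fell in WT, and 31.8% and 33% in tps1. The median over all IDs tested was -0.01 in WT and 0.00 in tps1. Whether the 2 sets differ in these mixes was not tested. The members' day changes were also called in the same direction in both genotypes for 32 that rose and 22 that fell, and 0 were called in opposite directions. These are 33% and 22.7% of the members, against 27.6% and 30% of all IDs tested, of which 0.0188% were called in opposite directions. In WT alone 9 members were called, in tps1 alone 10, and in neither 24, or 9.28%, 10.3% and 24.7%. Over all IDs tested these shares were 7.2%, 7.19% and 28%, so a like direction in both genotypes was common in the whole table. The rule removed IDs whose genotype difference reversed between the days. The joint calls of members are therefore not independent of the rule, and nothing is read from them.

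The member with the smallest p among those that fell was the same in both genotypes. Peaxi162Scf00040g00245 was at 22.7, 18.3 and 24.4 CPM at day -1 and at 2.55, 2.54 and 2.77 CPM at day +1 in WT, a log2 change of -2.91 ± 0.127 SE (edgeR adjusted p = 3.9e-08). In tps1 it was at 37.6, 35.9 and 37.4 CPM and then at 6.58, 5.29 and 5.91 CPM, a log2 change of -2.49 ± 0.12 SE (edgeR adjusted p = 7.12e-08). The days did not overlap in either genotype, and tps1 lay above WT on both. Peaxi162Scf00951g00019 also fell in both. It went from 15.6, 15.8 and 16.3 CPM to 6.28, 5.93 and 4.90 CPM in WT (log2 change -1.34, edgeR adjusted p = 7.21e-07). In tps1 it went from 29.7, 31.0 and 27.8 CPM to 18.1, 18.1 and 18.2 CPM (-0.56, edgeR adjusted p = 0.000254). Its level in tps1 after opening was thus above that of WT before opening. Peaxi162Scf00167g01221, a lower member, went from 44.3 ± 2.51 to 18.4 ± 2.07 CPM in WT and from 23.8 ± 1.52 to 8.57 ± 0.303 CPM in tps1 (SD, n = 3). Its log2 change between days was -1.13 in WT and -1.33 in tps1 (edgeR adjusted p = 2.22e-06 and 8.27e-07).

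Of the members that rose, Peaxi162Scf00160g00840 had the smallest p in WT, where it went from 9.17, 8.24 and 11.9 CPM to 53.0, 71.4 and 67.8 CPM (log2 change 2.85 ± 0.245 SE, edgeR adjusted p = 3.79e-06). In tps1 it went from 19.2, 36.9 and 21.6 CPM to 105, 116 and 129 CPM (2.31 ± 0.236 SE, edgeR adjusted p = 1.33e-05). It was followed by Peaxi162Scf00032g00171, which rose from 0.859 ± 0.261 to 5.71 ± 0.543 CPM in WT and from 1.60 ± 0.352 to 8.79 ± 2.23 CPM in tps1 (SD, n = 3; log2 changes 2.87 and 2.60). In tps1 the smallest p was that of Peaxi162Scf00469g00312, a lower member that was nearly absent there at day -1. It had 0.351, 0.134 and 0.154 CPM and then 5.18, 4.45 and 3.11 CPM in tps1, a log2 change of 4.45 ± 0.349 SE (edgeR adjusted p = 2.04e-06). In WT it rose from 1.99, 1.35 and 1.24 CPM to 9.09, 9.78 and 8.73 CPM (2.73 ± 0.288 SE, edgeR adjusted p = 1.65e-05). Peaxi162Scf00185g01122, a higher member, rose from 12.6 ± 3.95 to 62.9 ± 5.08 CPM in tps1 and from 4.95 ± 0.629 to 22.1 ± 5.78 CPM in WT (SD, n = 3; log2 changes 2.47 and 2.28).

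Several of the members named for their folds or levels also changed between the days. Others did not: Peaxi162Scf01082g00025 (edgeR adjusted p = 0.672 in WT and 0.621 in tps1) and Peaxi162Scf00577g00064 (0.194 and 0.296) were called in neither genotype. Peaxi162Scf00073g02223 rose by 3.43 in WT and 3.38 in tps1 on the log2 scale (edgeR adjusted p = 1.06e-05 and 1.23e-05). Peaxi162Scf00944g00145 changed by -3.43 in WT and -3.09 in tps1 (edgeR adjusted p = 1.47e-05 and 3.2e-05). Peaxi162Scf01082g00028 was called in WT, where its log2 change was -0.76 (edgeR adjusted p = 0.00204), and in tps1 the change was 0.07 (edgeR adjusted p = 0.708). Peaxi162Scf00853g00214 was called in tps1 (-3.98, edgeR adjusted p = 0.000292), and in WT its change was -0.38 (edgeR adjusted p = 0.464). Peaxi162Scf00305g00091 was called in tps1 (3.57, edgeR adjusted p = 8.24e-05), and in WT its change was 0.70 (edgeR adjusted p = 0.0922). In these 3 cases a difference in day change between the genotypes was not tested.

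**Figure D5:**
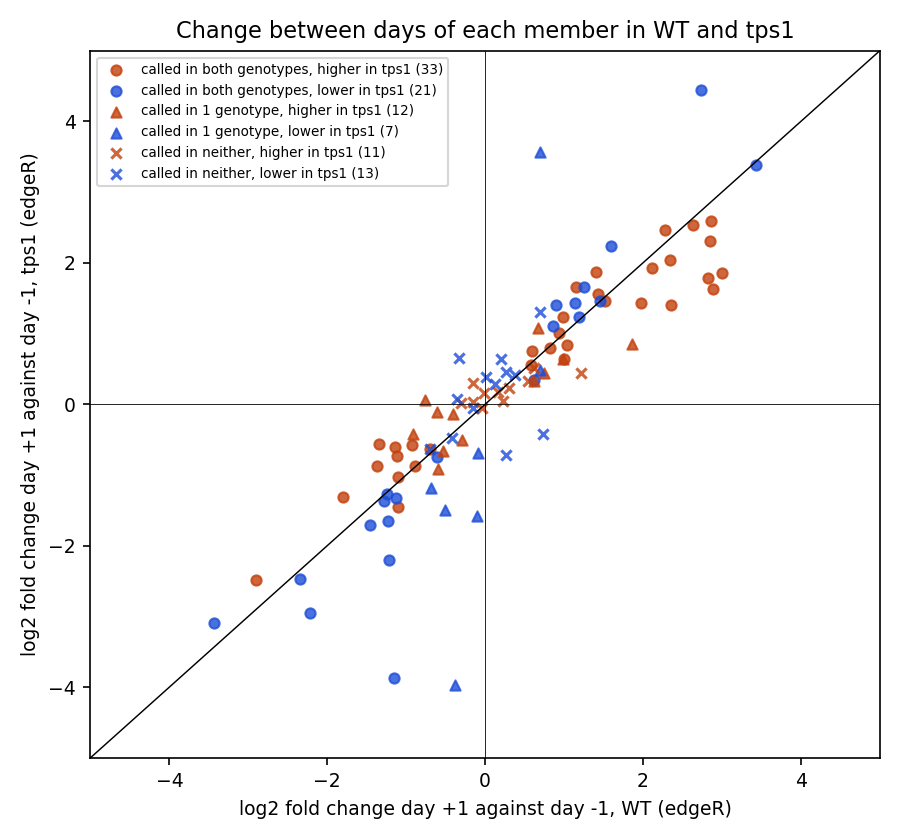
Fitted log2 change from day -1 to day +1 (edgeR) in WT (horizontal axis) and tps1 (vertical axis) of the 97 members; colour gives the direction of the genotype difference, the symbol gives in how many genotypes the change was called, and the line marks equal changes. Of the members called in both, 32 lie in the upper right and 22 in the lower left. The rule fixed the direction of the genotype difference on both days, so the axes are not independent of it.

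At the edge of the rule, members and non-members differed little. The higher member nearest the threshold, Peaxi162Scf00152g01444, had folds of 1.51 and 1.56, and the ID just outside it, Peaxi162Scf00191g00112, had folds of 1.75 and 1.48. On the lower side, Peaxi162Scf00295g01020 was just inside, with folds of 1.92 and 1.51, and Peaxi162Scf00107g02025 just outside, with 1.48 and 1.76. The last of these had 17.0, 16.8 and 16.0 CPM in WT and 11.9, 10.5 and 11.1 CPM in tps1 at day -1.

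Meeting the rule is not the same as passing a test across all IDs. Of the 97 members, 24 were called between the genotypes at day -1 and 30 at day +1 by the edgeR fit (adjusted p under 0.05), 21 of them on both days, and 64 were called on neither day. Of all IDs tested, 0.184% were called at day -1 and 0.4% at day +1. The rule chose the members on these same contrasts, so nothing is read from their counts. These counts moved from 15 to 41 at day -1 and from 17 to 34 at day +1 when 1 library was left out, the 41 coming without tps1 day -1 replicate 2, and were 59 and 64 with DESeq2. The share of all IDs called in these alternatives is not given here, so the moves are not read as a trait of the members. Over all IDs, 22 were called on both days in the main edgeR fit. The 1 that was no member, Peaxi162Scf00385g00512, named after its values were seen, stood at 0.738 CPM in tps1 at day -1 and was below the minimum level.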

How the data were processed

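The deposited table holds raw read counts, as whole numbers, per gene ID and library. Per the submitters' processing notes, the authors used cutadapt, TopHat2 and HTSeq. The sources used here state no version, no genome build and no setting for strand, so reads shared between near-identical, overlapping or antisense genes cannot be recognised. All 12 columns were matched to samples by the column names in the sample descriptions.

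CPM for the rule, and the CPM printed for members, used column totals, while the log2 changes used TMM scaling. The TMM factors were 1.00 to 1.07 at day -1 and 0.918 to 0.991 at day +1. Small changes between days can therefore differ in sign between CPM and the fit, as for Peaxi162Scf01082g00028 in tps1. Day changes were tested in R 4.3.3 with edgeR 4.0.16: filterByExpr (minimum count 10), TMM scaling, 1 quasi-likelihood model over the 4 groups, and Benjamini-Hochberg adjustment over the 21239 IDs kept, with a threshold of 0.05. The biological coefficient of variation was 24.6%. The standard error is the log2 change over the square root of the F statistic, an approximation. The edgeR test of the day change in WT was checked on simulated counts with planted changes. The rule, the other contrasts and the intervals were not checked in this way. Exact (Clopper-Pearson) intervals cover counting error only.

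The members, the lists and the tests were chosen with earlier results of these data known. Named members are, per direction, those with the largest smaller-of-2-days fold, the highest level and the widest move of the fold between days, those with the smallest p of the day change, and those next to the threshold; others are marked. No sequence or coordinate is printed, since no annotation of these IDs was used here. Alternatives were other settings of the rule, size factors of DESeq2, no filter on low counts, DESeq2 1.42.0, fits within 1 genotype, a replicate block and leaving out libraries; leaving out both day -1 libraries numbered 2, and the genotype calls of members, were added after seeing the data.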

Additional observations from a re-analysis of the deposited data

How the results depend on the processing

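The size of the list followed the settings of the rule. A threshold of 2-fold gave 23 higher and 15 lower members, a minimum of 5 CPM gave 31 and 15, and a pseudocount of 1 CPM gave 38 and 23. TMM-scaled CPM gave 56 and 44, and dropping the 32-fold limit changed neither count. With 1 library left out, the rule gave 53 to 74 higher and 38 to 62 lower members. The 74 came without WT day -1 replicate 3 and the 62 without tps1 day -1 replicate 2. Without both day -1 libraries numbered 2 it gave 70 and 75. In all these settings higher members were the more frequent, except without both libraries. Fewer libraries make the condition of no overlap easier to meet.

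The counts of members with a day change stayed within 1.5 times those reported under each alternative. With 1 library left out, 31 to 39 members rose and 23 to 29 fell in WT, and 30 to 37 rose and 22 to 30 fell in tps1. In these fits 12625 to 14515 of all IDs were called either way in WT and 12299 to 14325 in tps1. The main fit called 13761 and 13760 of 21239. With the replicate block, 37 rose and 24 fell in WT and 33 rose and 27 fell in tps1, while 13241 and 13365 of all 21239 IDs were called either way. Shared replicate numbers were not taken to pair the samples, since not every correlation of deviations was over 0.1. Between the days the correlations lay between -0.58 and 0.12 for WT and between -0.01 and 0.04 for tps1. Between the genotypes they lay between -0.37 and 0.12 at day -1 and between -0.12 and 0.36 at day +1, the highest being that of replicate 2.

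Of the day changes of named members, 612 values over the alternatives kept direction and call, 28 lost the call, 2 gained it and 3 changed sign, none of the last being called. With 1 library left out, Peaxi162Scf00577g00064 in tps1 lay between -0.18 (without tps1 day +1 replicate 1) and 1.76. Peaxi162Scf01082g00025 in WT lay between -0.22 (without WT day -1 replicate 2) and 1.49 (without WT day -1 replicate 3, called there), and was at -0.22 without both day -1 libraries numbered 2. Both IDs have few counts in that genotype. The cause was not tested. Depth limits what can be said of members whose lower group holds 10 counts or fewer, and the fitted day change of Peaxi162Scf00013g00518 in tps1, from 6 summed counts to 0, depends on the prior count.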
